A study of Homo sapiens with 8 samples.

Results

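The nuclear-encoded respiratory chain genes are the protein-coding genes of the oxidative phosphorylation system whose symbols start with NDUF, UQCR, COX4 to COX8 or ATP5, or are SDHA, SDHB, SDHC or SDHD. The rule used names and gene type alone and no measured value, and it found 95 genes among the 34164 genes listed in either of 2 expression tables. All 95 were in the inhibitor table and 93 in the shRNA table, with ATP5L2 and COX4I2 in the inhibitor table only. Complex I held 45 of them (7 core subunits, 30 accessory subunits and 8 assembly factors), complex II 4, complex III 9, complex IV 16 and complex V 20. The 20 of complex V were 17 subunits, the inhibitor gene ATP5IF1, the readthrough ATP5MF-PTCD1 and the paralog ATP5L2. The last gene, ATP5S, carries an ATP5 name but is not a structural subunit and was placed in no complex.

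RNA-seq was performed on Kyse510 cells, an established line of esophageal squamous cell carcinoma (ESCC), with a single library, 8 in all, for each condition. For inhibition, cells were given vehicle (DMSO), 7 µM SP2509, an inhibitor of the histone demethylase LSD1, 7 µM UNC0642, an inhibitor of the histone methyltransferase G9a, or SP2509 together with UNC0642, for which no separate dose was given, and RNA was taken after 2 days. For silencing, stable lines carrying a doxycycline (Dox)-inducible shRNA against LSD1 (shLSD1) or G9a (shG9a) were selected in puromycin for 14 days and compared without Dox and after 2 days of Dox. Both uninduced lines carry their construct, each enzyme was targeted by 1 shRNA, and neither line was compared here with a Dox-treated line lacking an shRNA, so that the effect of the knockdown and that of Dox cannot be told apart.

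The respiratory chain passes electrons from NADH through complex I, or from succinate through complex II, to ubiquinone, then through complex III and cytochrome c to complex IV, which reduces oxygen. Complexes I, III and IV pump protons across the inner mitochondrial membrane, and complex V, the ATP synthase, uses the gradient to make ATP. Most subunits are encoded in the nucleus and imported, while a small set of core subunits of complexes I, III, IV and V comes from the mitochondrial genome. NRF1, the ETS-family factor GABPA and coactivators of the PGC-1 family are known regulators of the nuclear genes.

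The libraries held between 15662035 and 17889466 reads, as recovered from steps in the deposited values. KDM1A, which encodes LSD1, was at 26.0 FPKM in the uninduced and 6.29 FPKM in the induced shLSD1 library, and EHMT2, which encodes G9a, was at 7.85 FPKM in the uninduced and 4.76 FPKM in the induced shG9a library. EHMT2 was also at 5.38 FPKM with both inhibitors against 11.1 FPKM with DMSO. The epithelial markers CDH1 and EPCAM and the squamous markers KRT5 and TP63 were present in all 8 libraries, whereas KRT6A ranged from 0.676 to 20.03 FPKM and SOX2 from 0.313 to 38.8 FPKM. KRT5 was at 427 FPKM with DMSO, 734 with SP2509, 303 with UNC0642 and 163 with both inhibitors. In that order, TP63 was at 79.1, 127, 62.6 and 18.3 FPKM and KRT14 at 1.93, 8.67, 8.31 and 10.1 FPKM. The leukocyte marker PTPRC did not exceed 0.0425 FPKM and the fibroblast marker DCN did not exceed 0.0494 FPKM in any library. Among markers of other cell types, endothelial CDH5, at 3.28 to 14.0 FPKM, and the collagen gene COL1A1, at 2.92 to 5.36 FPKM, exceeded 1 FPKM in all 8 libraries. COL1A1 was at 2.96 FPKM with DMSO, 5.15 with SP2509 and 5.36 with both inhibitors. COL3A1 reached 1.501 FPKM with SP2509 and VWF 1.42 FPKM in the induced shG9a library. The part of these markers in the changes of the members was not tested.

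With 1 library per condition there is no replicate error and no test between conditions. A member is described as higher or lower when its FPKM plus 1 differed by a fold of at least 1.3 from its own control and at least 1 of the 2 libraries reached 1 FPKM. The 95% intervals given for FPKM ratios are exact binomial intervals on recovered reads, and they cover counting error only. The 2 uninduced lines offer a view of how far libraries differ with neither enzyme silenced. Between them, 1 of 81 members was higher and 2 were lower in the shG9a line, against 3.04% and 4.51% of all genes. Among protein-coding genes the shares were 1.11% and 1.15%. The median absolute log2 difference of the members was 0.06. The 3 genes were NDUFA4L2 at 2.72 against 1.81 FPKM, NDUFAF8 at 7.47 against 12.3 FPKM and ATP5F1D at 13.8 against 18.6 FPKM.

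The members were abundant as a group in every library. Between 78 and 82 of them reached 1 FPKM in a library, and between 48 and 61 reached 10 FPKM. Among the members, ATP5F1B, the catalytic beta subunit of the ATP synthase, was highest at 295 to 438 FPKM over the 4 inhibitor libraries, followed by NDUFS5, an accessory subunit of complex I, at 178 to 210 FPKM and COX6B1, a subunit of complex IV, at 144 to 169 FPKM. The sum over the members was 2732 FPKM with DMSO, 2336 with SP2509, 2649 with UNC0642 and 2505 with both. In the shRNA table it was 2535 FPKM without and 2709 with Dox in the shLSD1 line, and 2558 without and 3397 with Dox in the shG9a line. The induced shG9a library thus stood highest within its table, and SP2509 lowest within the other.

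A minority of the members was close to 0, including genes that respiring cells are known to use. Mean levels over the inhibitor libraries were below 1 FPKM for 16 members. Among them were NDUFV2 and NDUFS7, core iron-sulfur subunits of complex I, at 0.431 and 0.0995 FPKM, NDUFA9 at 0.371 FPKM, NDUFB8 at 0.305 FPKM and ATP5ME, a membrane subunit of complex V, at 0.111 FPKM. The tissue isoforms COX4I2, COX6B2 and COX7A1 were in the same range. In the reference annotation, exons of other genes on either strand lay over a median of 21.3% of the exonic bases of these 16 members. The median was 0% for the 79 others. For NDUFS7 the share was 51.4%, for ATP5ME 61.3%, for NDUFB8 48.5%, for NDUFV2 28.4% and for NDUFA9 10.6%, while COX7A1 and COX4I2 had none. Counting only exons on the same strand, it was 0% for NDUFS7 and ATP5ME and 33.8% for NDUFB8, and unchanged for NDUFV2 and NDUFA9. Among the 79 others the share reached 41.8%. How reads in shared exons were counted is not given in the sources used here, and the part of overlap in these low values was not tested. The low values are therefore given as listed, with no reading as absence of the subunit.

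**Figure D1:**
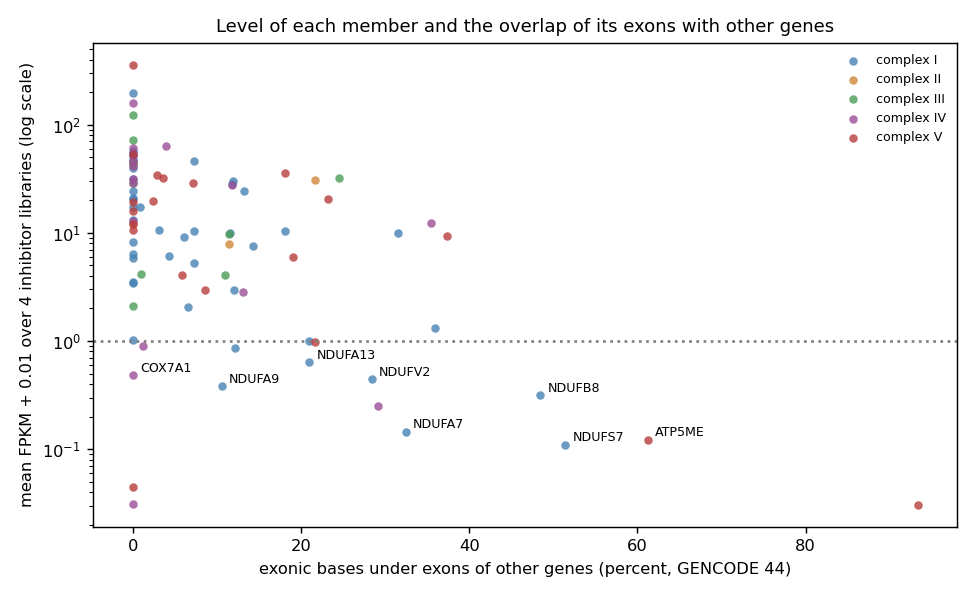
Mean level of each member over the 4 inhibitor libraries (FPKM plus 0.01, log axis) against the percent of its exonic bases under exons of other genes. Exons on either strand are counted, and points are coloured by complex with ATP5S left out. The dotted line marks 1 FPKM, and NDUFS7, NDUFB8 and ATP5ME sit below it at overlaps of 51.4%, 48.5% and 61.3%, as does NDUFA9 at 10.6%.

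Promoters of the members were read from RefSeq on GRCh38.p14, with windows from 250 bases before to 50 after the start, and 76 of the 95 members had one. Both strands were searched for short motif cores, and the NRF1 core GCGCATGC was present in 19.7% of the member windows against 3.27% of all 27305 windows and 4.26% of the 15842 windows of protein-coding genes, which is the closer background because all members are protein-coding. The ETS core CCGGAAG was present in 27.6% against 10.7% of all and 14.2% of protein-coding windows, the YY1 core AAGATGG in 21.1% against 6.06% and 6.40%, and the CREB core TGACGTCA in 6.58% against 1.98% and 2.59%. The ATF4-CEBP core TGATGCAA was in 0 of the 76 member windows and in 0.923% of all and 0.669% of protein-coding windows. These matches describe letters and not occupied sites. The 120 bases before the start are printed below for the member with the largest change in each complex with SP2509, to show the letters in which they differ, and capitals mark an NRF1 or ETS core on either strand.
NDUFS8 (chr11:68030561-68030680, plus strand): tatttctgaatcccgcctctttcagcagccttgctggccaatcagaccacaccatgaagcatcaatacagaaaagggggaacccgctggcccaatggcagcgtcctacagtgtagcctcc
SDHD (chr11:112086753-112086872, plus strand): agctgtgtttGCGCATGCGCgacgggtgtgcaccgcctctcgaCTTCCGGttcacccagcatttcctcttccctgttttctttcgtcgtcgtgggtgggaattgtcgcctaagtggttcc
UQCR11 (chr19:1605463-1605582, minus strand): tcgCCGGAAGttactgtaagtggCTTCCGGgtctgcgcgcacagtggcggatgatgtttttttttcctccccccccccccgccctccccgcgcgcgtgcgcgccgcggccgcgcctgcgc
COX5B (chr2:97645942-97646061, plus strand): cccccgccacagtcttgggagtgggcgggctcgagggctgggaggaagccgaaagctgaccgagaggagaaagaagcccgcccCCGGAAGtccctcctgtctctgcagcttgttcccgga
ATP5F1A (chr18:46104228-46104347, minus strand): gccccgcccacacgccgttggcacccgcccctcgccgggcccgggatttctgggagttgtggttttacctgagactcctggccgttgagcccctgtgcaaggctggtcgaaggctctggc
In this stretch SDHD held overlapping NRF1 cores, one on each strand, and an ETS core, UQCR11 held an ETS core on each strand, and COX5B held an ETS core. NDUFS8 and ATP5F1A held none of the letters searched.

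SP2509 was accompanied by lower levels of many members. Of 83 members past the filter, 35 were lower and 1 was higher, against 39.9% lower and 21.0% higher among all 13342 genes. The share of lower members, 42.2%, was near that of all genes, whereas the share of higher members was 1.20%. After log2 changes were centred on the median over genes of 5 FPKM or more, 32.5% of members were lower, against 34.9% of all genes. With equal sums over nuclear protein-coding genes, 48.2% of members were lower, against 42.4%. The median log2 change was -0.31 for the members and -0.21 for all genes, and 67 of the 83 members lay below 0.

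Complex I held 21 of the 35 lower members with SP2509. It had 39 members past the filter, with a median log2 change of -0.46. Its subunits were lower in 14 of 31, near the 39.9% of all genes, with a median of -0.33. The assembly factors, which help build the complex without staying in it, were lower in 7 of 8, with a median of -0.62. NDUFAF4 had 9.23 FPKM with DMSO and 3.65 FPKM with SP2509, a ratio of 0.395 (0.327 to 0.477). NDUFAF2 went from 26.2 to 13.5 FPKM, and NDUFAF5, at 1.26 and 0.879 FPKM, was the factor that stayed inside the fold. Among core subunits, NDUFS8, which carries iron-sulfur clusters of the ubiquinone-reducing module, was at 15.1 FPKM with DMSO and 5.91 with SP2509, a ratio of 0.391 (0.350 to 0.436). NDUFS1, in the NADH-oxidizing module, was at 14.1 and 6.95 FPKM. NDUFS6, an accessory subunit, was at 58.7 and 25.4 FPKM, a ratio of 0.433 (0.394 to 0.476). These 5 genes kept between 0.391 and 0.516 of their DMSO level. Other accessory subunits of similar abundance hardly differed, such as NDUFA8 at 53.0 and 52.2 FPKM and NDUFB4 at 47.9 and 57.3 FPKM. The only higher member was NDUFV2, with 5 reads and 0.118 FPKM in DMSO and 51 reads and 1.06 FPKM in SP2509. It passed the filter through the SP2509 library alone, and NDUFC2, lower at 0.106 against 1.11 FPKM, passed through the DMSO library alone.

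The other complexes are set against the 39.9% of all genes that were lower with SP2509. Complexes II, III and V were near that share, whereas complex IV was below it. In complex II, 2 of 4 genes were lower. SDHD, a membrane anchor, went from 9.54 to 4.27 FPKM, a ratio of 0.448 (0.379 to 0.529), and SDHB, the iron-sulfur subunit, from 48.1 to 35.9 FPKM, while SDHA, the flavoprotein, was at 30.8 and 30.6 FPKM and SDHC at 12.5 and 12.1 FPKM. In complex III, 4 of 9 were lower, led by UQCR11, a small subunit, at 5.94 and 1.70 FPKM with a ratio of 0.286 (0.213 to 0.380), and by UQCRFS1, the Rieske iron-sulfur protein, at 33.4 and 18.3 FPKM. In complex V, 7 of 17 were lower, among them the catalytic subunits ATP5F1A, at 26.6 and 13.6 FPKM, and ATP5F1B, at 438 and 323 FPKM. In complex IV, 0 of 13 were lower and 0 higher, and the largest change was in COX5B, at 48.9 and 38.003 FPKM. The median log2 change of complex IV was -0.20, against -0.21 for all genes past the filter and -0.09 for all genes of 5 FPKM or more.

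**Figure D2:**
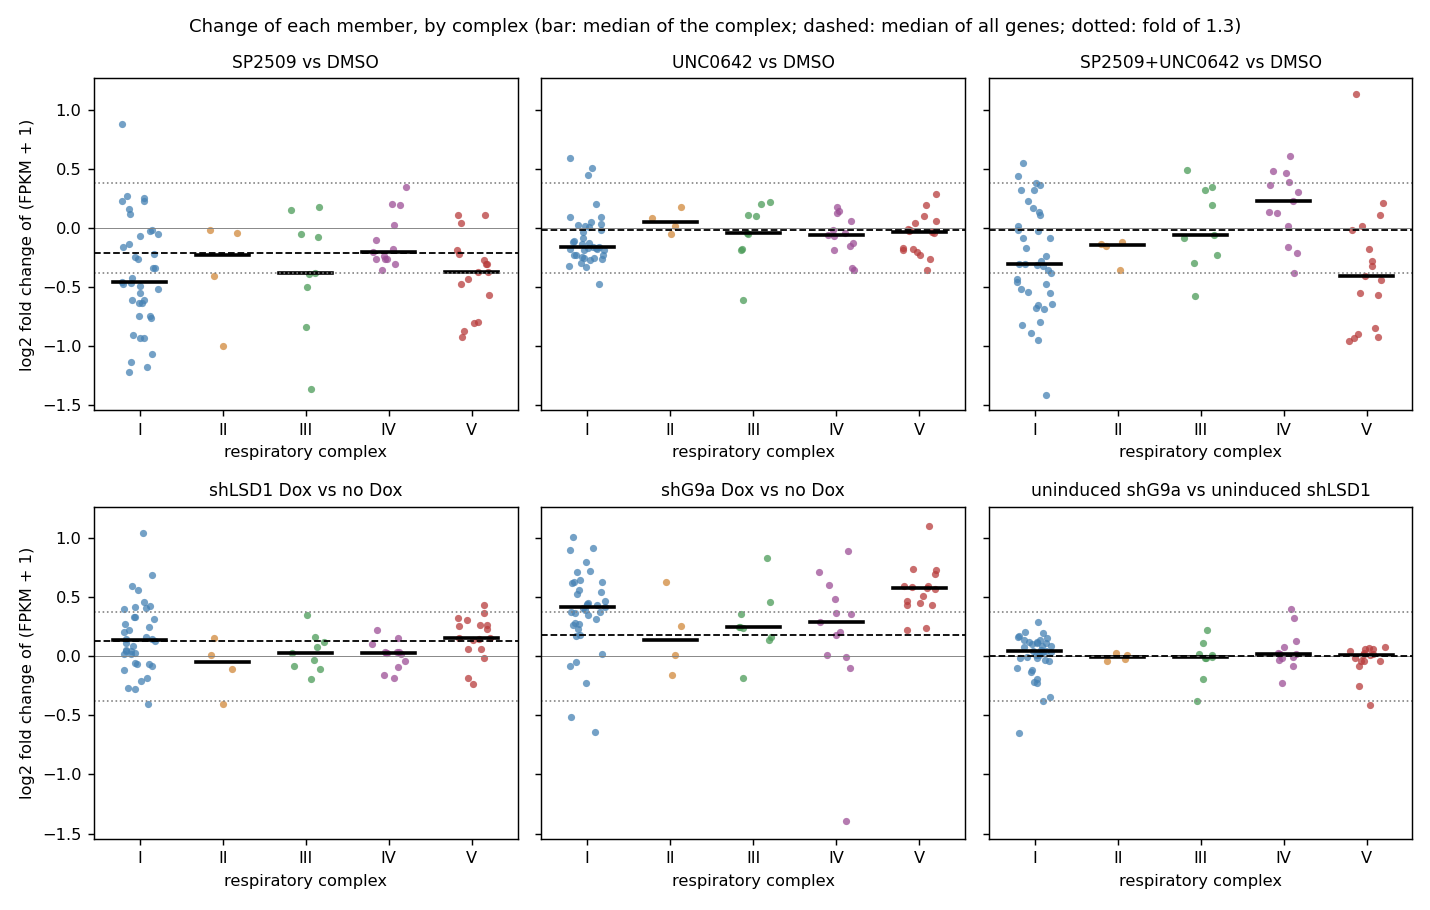
Log2 fold change of FPKM plus 1 for each member past the filter (points), by complex, in the 5 treated comparisons and between the 2 uninduced lines, with ATP5S left out. Bars are medians of a complex, the dashed line is the median of all genes and dotted lines mark a fold of 1.3. Complex I and V lie mostly below 0 with SP2509 (medians -0.46 and -0.37) and above 0 with Dox in the shG9a line (0.41 and 0.58).

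UNC0642 alone left most members inside the fold. Of 82 members, 3 were higher and 2 lower, against 18.2% and 16.9% of all genes, so that both shares, 3.66% and 2.44%, were below the background. The median log2 change was -0.07. NDUFAF8, a complex I assembly factor, was higher at 13.3 against 8.49 FPKM, as were NDUFA2 at 3.72 against 2.32 FPKM and NDUFB3 at 34.1 against 24.7 FPKM. The lower genes were UQCR11 at 3.53 FPKM, a ratio of 0.595 (0.475 to 0.744), and NDUFV3, an accessory subunit of the NADH-oxidizing module, at 3.70 against 5.54 FPKM. No member of complexes II, IV or V passed the fold in either direction.

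With both inhibitors, 28 of 83 members were lower and 8 higher, against 31.7% and 31.4% of all genes. The share of lower members was 33.7% and that of higher members 9.64%. The median log2 change was -0.18 for the members and -0.02 for all genes. These comparisons share the DMSO library with those above, so the values are set side by side. Complex I was lower in 16 of 39 members and higher in 2, and complex V lower in 9 of 17 and higher in 1. Complex IV was higher in 4 of 13 and lower in 1, with a median of 0.23. When values were scaled to equal sums over nuclear protein-coding genes, 38 of the 83 members, 45.8%, were lower and 3 higher. The shares of all genes scaled in the same way were 37.2% and 26.7%. After log2 changes were centred on the median over genes of 5 FPKM or more, 30 members, 36.1%, were lower and 7 higher. The shares of all genes after centring were 33.5% and 29.9%, so the lower share of members was then near the background.

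NDUFV1, the complex I subunit that takes electrons from NADH, had the largest decrease with both inhibitors. Its level was 39.8 FPKM with DMSO, 33.5 with SP2509, 33.2 with UNC0642 and 14.3 with both, a ratio of 0.359 (0.333 to 0.386) to DMSO. The library with both inhibitors stood apart from the other 3. The same held for ATP5MC2, a gene for the c subunit of the ATP synthase rotor, at 34.2, 37.0, 26.5 and 17.1 FPKM in that order. NDUFS1, at 14.1, 6.95, 11.6 and 6.84 FPKM, was as low with SP2509 alone as with both, and so was ATP5F1A at 26.6, 13.6, 23.5 and 13.6 FPKM. NDUFS6 was at 58.7, 25.4, 52.3 and 44.7 FPKM, so that its lowest value was with SP2509 alone. UQCR11 gave 5.94, 1.70, 3.53 and 4.93 FPKM.

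ATP5MD, a small membrane subunit of the ATP synthase, was highest with both inhibitors, at 26.0 FPKM with DMSO, 28.1 with SP2509, 31.9 with UNC0642 and 58.3 with both, a ratio of 2.25 (1.99 to 2.55). NDUFA4, first named as a complex I subunit and later found with complex IV, was at 28.3, 26.4, 27.9 and 43.7 FPKM. NDUFAF1, an assembly factor, was at 5.85, 3.42, 5.996 and 9.002 FPKM, lower with SP2509 and higher with both. The other higher genes of complex IV were COX7A2, at 62.1 against 44.1 FPKM, COX7B, at 35.5 against 26.9 FPKM, and COX7A2L, at 16.1 against 11.4 FPKM. UQCRH, of complex III, was at 148 against 106 FPKM, but UQCRHL is an intronless near-copy of it, and reads shared between the pair may have been split.

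**Figure D3:**
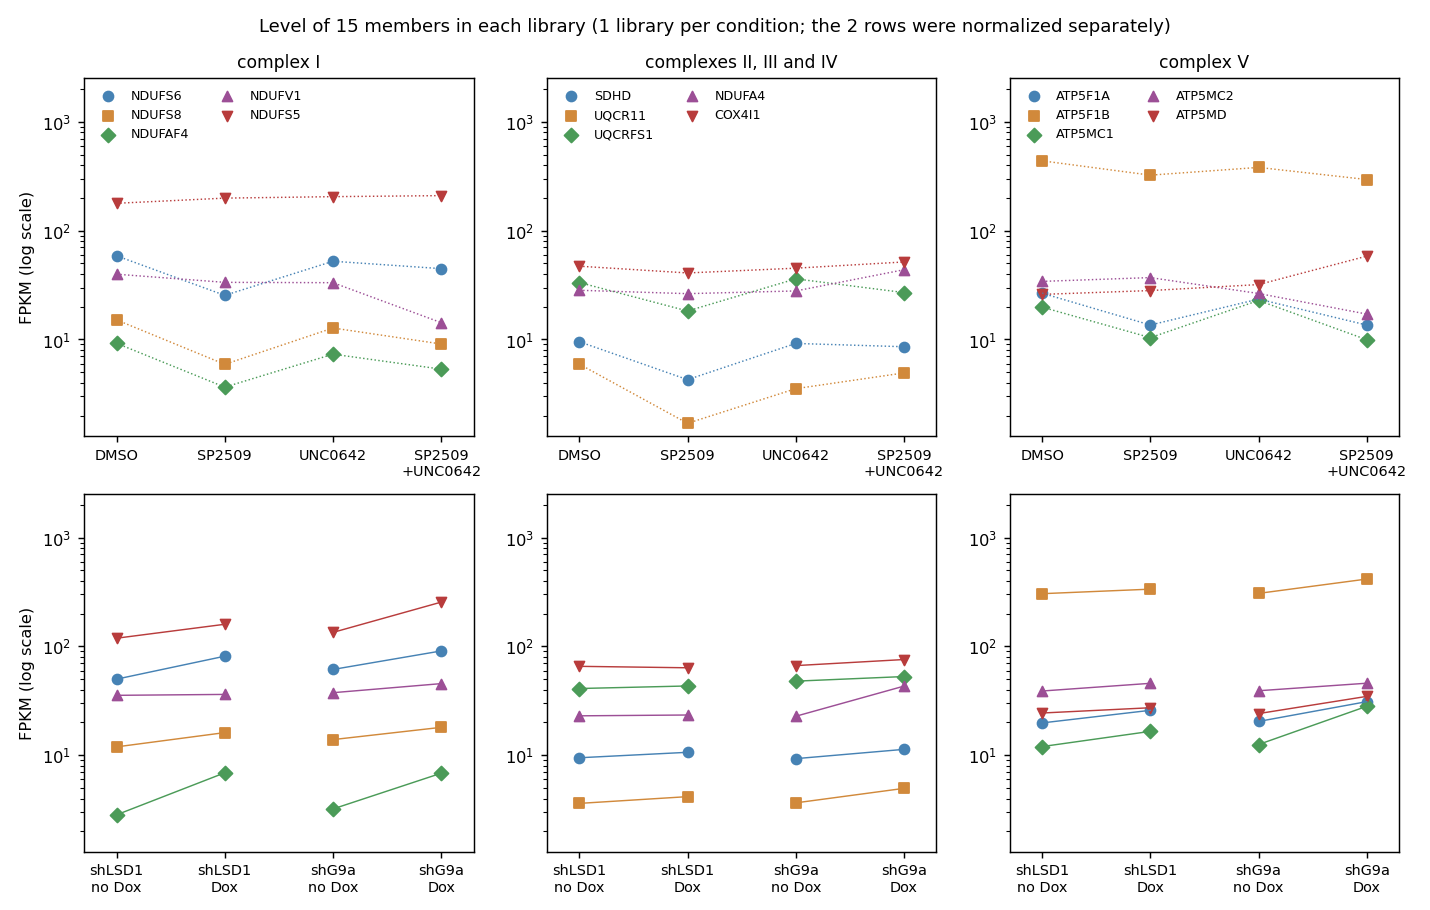
FPKM (log axis) of 15 members in each library, with the 4 inhibitor libraries above and the 4 shRNA libraries below; each point is 1 library and the 2 tables were normalized separately. NDUFS6, NDUFS8, NDUFAF4, SDHD and UQCR11 are lowest with SP2509, NDUFV1 and ATP5MC2 are lowest with both inhibitors, and ATP5MD is highest with both.

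Dox in the shLSD1 line was accompanied by higher levels in a small group. Of 82 members, 10 were higher and 2 lower, against 24.8% and 12.3% of all genes. The shares of members, 12.2% and 2.44%, were both below the background, and the median log2 change of 0.10 was below the 0.13 of all genes. After log2 changes were centred on the median over genes of 5 FPKM or more, 4 members were higher and 4 lower, against 17.0% and 16.6% of all genes after centring, and with equal sums over nuclear protein-coding genes 11 were higher and 0 lower, against 26.9% and 11.7%. Complex I held 9 of the 10, out of its 38 members past the filter, which is near the 24.8% of all genes. NDUFAF4 was at 2.84 FPKM without and 6.90 with Dox, a ratio of 2.43 (1.97 to 3.01). NDUFAF6 was at 1.41 and 2.63 FPKM, NDUFAF1 at 4.75 and 7.47 FPKM and NDUFAF2 at 17.3 and 23.1 FPKM, so that 4 of 7 assembly factors were higher. NDUFS6 was at 50.04 and 81.3 FPKM, a ratio of 1.62 (1.51 to 1.74). ATP5MC1, another gene for the c subunit, was the only one outside complex I, at 12.0 and 16.6 FPKM. The lower members were NDUFS4, an accessory subunit of complex I, at 23.8 and 17.7 FPKM, and SDHA at 34.5 and 25.9 FPKM.

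Dox in the shG9a line gave the largest median change toward higher levels of the 5 comparisons. Of 81 members, 42 were higher and 3 lower, against 32.9% and 17.6% of all 13080 genes. The share of higher members was 51.9%, and the median log2 change was 0.41 for the members and 0.18 for all genes. After centring, 27 members, 33.3%, were higher, against 22.5% of all genes. Of the 42, ATP5MG, NDUFC2 and UQCRHL were below 1 FPKM without Dox and passed the filter through the induced library alone, and of the 3 lower members NDUFA4L2 passed through the uninduced library alone. Complex V was higher in 14 of 16 members, with a median of 0.58 and none below 0. ATP5MC1 was at 12.6 FPKM without and 28.2 with Dox, a ratio of 2.24 (2.03 to 2.49). ATP5F1B was at 307 and 416 FPKM and ATP5F1A at 20.5 and 31.1 FPKM. The 2 that stayed inside the fold were ATP5F1C, at 56.4 and 66.6 FPKM, and ATP5MC2, at 39.1 and 45.9 FPKM.

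Complex I was higher in 21 of 38 members with Dox in the shG9a line, against 32.9% of all genes. Of the 21, 17 were accessory subunits. NDUFS5 was at 134 and 255 FPKM, a ratio of 1.90 (1.77 to 2.03), and NDUFC2 at 0.661 and 2.35 FPKM. The core subunits were higher in 1 of 5, although all 5 lay above 0, with a median of 0.37. The shares of higher members among these core subunits and in complexes II, III and IV were below the 32.9% of all genes. In complex IV, 4 of 13 were higher, including NDUFA4 at 22.8 and 43.2 FPKM and COX6B1 at 188 and 286 FPKM. In complex III 2 of 9 were higher, with UQCR10 at 30.4 and 54.9 FPKM, and in complex II SDHC was higher, at 10.2 and 16.3 FPKM, while SDHA was at 33.6 and 34.0 FPKM. The lower members were NDUFA4L2, a paralog of NDUFA4 known to be induced in hypoxia, at 2.72 and 0.412 FPKM with a ratio of 0.152 (0.0896 to 0.244), NDUFAF8 at 7.47 and 4.45 FPKM and NDUFAF2 at 19.0 and 12.95 FPKM. NDUFAF8 had differed as much between the 2 uninduced lines as it did with Dox.

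**Figure D4:**
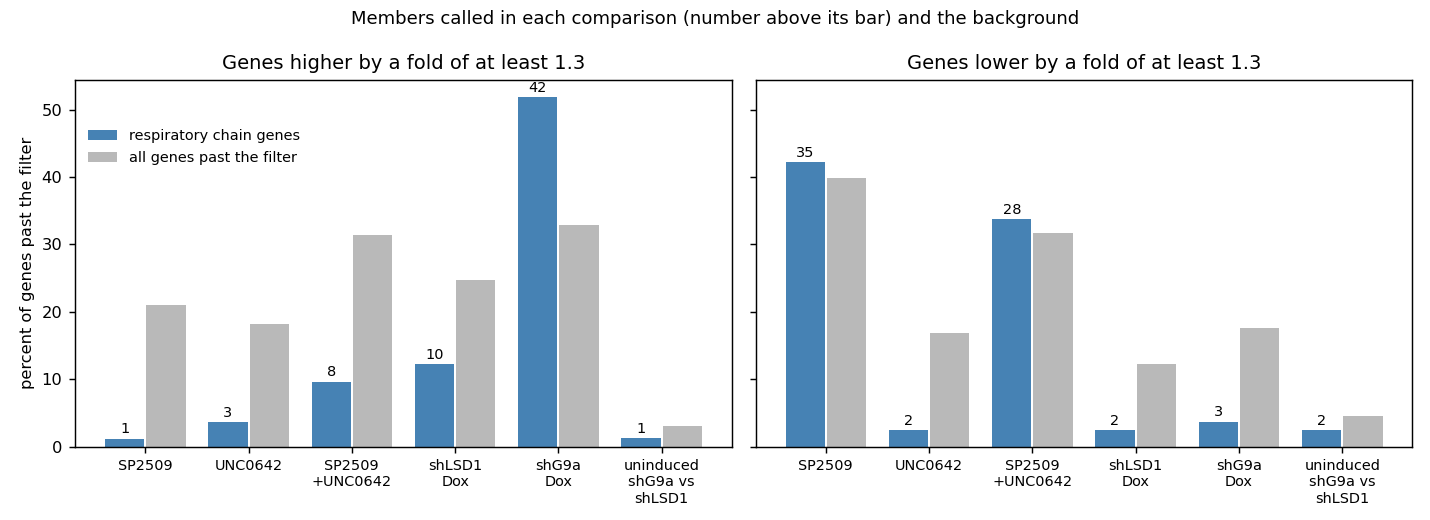
Percent of genes past the filter that were higher (left) or lower (right) by a fold of at least 1.3, for the respiratory chain genes (blue, with the number of genes above the bar) and all genes (grey). The members exceed the background by the most for higher levels with Dox in the shG9a line, at 42 members or 51.9% against 32.9%.

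The knockdown and the inhibitor of LSD1 share no library, and no member passed the fold in the same direction in both. Of 81 members past the filter in both, 0 were higher in both, against 2.53% of all genes, and 0 lower in both, against 2.07%. In contrast, 9 were higher with Dox in the shLSD1 line and lower with SP2509, against 14.4% of all genes, and 0 were lower with Dox and higher with SP2509, against 6.00%. The 9 were NDUFS1, NDUFS6, NDUFS8, NDUFB7, NDUFAF1, NDUFAF2, NDUFAF4, NDUFAF6 and ATP5MC1. The opposite pattern was thus not more frequent among the members than among all genes. The log2 changes of the 81 members had a Pearson r of -0.51, and those of all 11769 genes one of -0.40, given as a description since genes of a library share its depth and composition. With centring, 4 members changed in opposite directions, against 17.0% of all genes.

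For G9a, 80 members passed the filter in both. Of these, 2 were higher in both, NDUFB3 and NDUFA2, against 4.79% of all genes, and 0 were lower in both, against 4.01%. NDUFV3 was higher with Dox and lower with UNC0642, a pattern found in 4.10% of all genes, and NDUFAF8 was lower with Dox and higher with UNC0642, a pattern found in 5.95%. NDUFA2 was at 2.32 FPKM with DMSO and 3.72 with UNC0642, and at 3.21 without and 5.94 with Dox, a ratio of 1.85 (1.40 to 2.46). The Pearson r was 0.12 over the members and -0.11 over all genes.

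**Figure D5:**
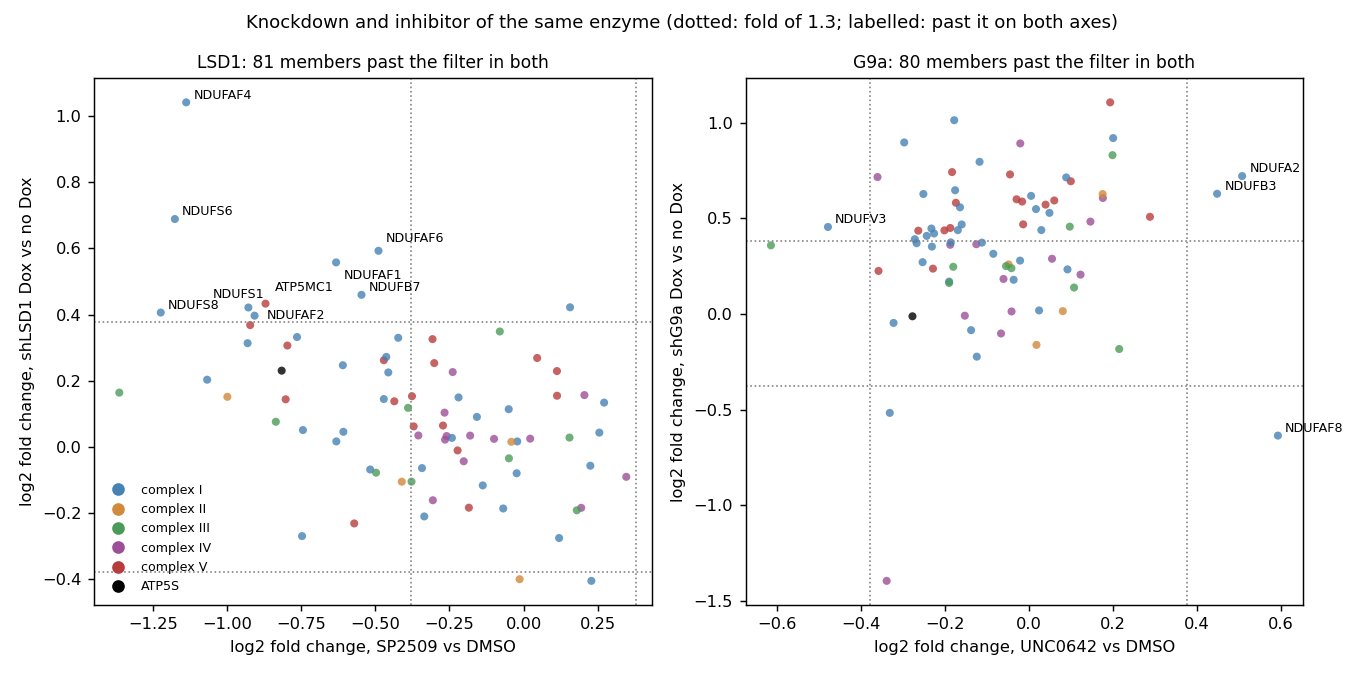
Log2 fold change of FPKM plus 1 of each member with the inhibitor (horizontal) and with Dox in the shRNA line (vertical), for LSD1 with 81 members and G9a with 80; colours give the complex and dotted lines a fold of 1.3. For LSD1, 9 labelled members lie in the upper left and none in the lower left or upper right, and for G9a NDUFA2 and NDUFB3 lie in the upper right.

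The genes of one subunit differed in the size of their changes. The c subunit of the ATP synthase is encoded by ATP5MC1, ATP5MC2 and ATP5MC3, which differ in the import peptide. With SP2509, ATP5MC1 was at 10.4 against 19.8 FPKM, ATP5MC2 at 37.0 against 34.2 and ATP5MC3 at 16.7 against 21.8, so that ATP5MC1 alone passed the fold. With both inhibitors, ATP5MC1 and ATP5MC2 were lower, at 9.95 and 17.1 FPKM, and ATP5MC3, at 17.2 FPKM, was inside the fold. With Dox in the shG9a line, ATP5MC1 and ATP5MC3 were higher, the latter at 36.0 against 21.9 FPKM, and ATP5MC2 lay above its control but inside the fold. NDUFA4 and NDUFA4L2 were displaced in opposite directions there, as given above. COX4I1, the common isoform of its subunit, was between 40.8 and 51.5 FPKM in the inhibitor libraries and between 63.6 and 75.8 FPKM in the shRNA libraries, and did not pass the fold in any comparison. Its alternative COX4I2 was listed at 0 in 3 of the 4 inhibitor libraries and at 0.0855 FPKM with both inhibitors. Over all 5 comparisons, NDUFAF1 was higher in 3, NDUFAF8 and NDUFV3 were each lower in 3, and 24 of the 95 members were neither higher nor lower in any. Of these 24, 11 were below 1 FPKM in every library and could not have passed the filter.

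Genes of the same pathway outside the naming rule were taken from lists, and each count is to be read against the share of all genes in the same comparison. The 13 respiratory subunits of the mitochondrial genome were lower in 11 with SP2509, against 39.9% of all genes, with a median log2 change of -1.31. They were lower in 3 with UNC0642, against 16.9%, and in 10 with both inhibitors, against 31.7%, and none was higher. MT-ND4, at 9016 FPKM with DMSO and 8846 with SP2509, and MT-ND4L, at 3679 and 3396 FPKM, stayed inside the fold. With Dox, 7 of the 13 were higher in the shLSD1 line, against 24.8%, and 12 in the shG9a line, against 32.9%. The median was 0.94 in the latter. MT-CYB, the mitochondrially encoded core subunit of complex III, was at 2931 FPKM with DMSO and 382 with SP2509, and at 2152 without and 5606 with Dox in the shG9a line. The 13 subunits summed to 61560 FPKM with DMSO, 31797 with SP2509, 52068 with UNC0642 and 35103 with both inhibitors. All genes of the mitochondrial genome together, not only these 13, took 7.85% of reads with DMSO. That share was 6.50% with SP2509, 6.16% with UNC0642 and 5.43% with both inhibitors. It was 8.65% in the uninduced and 10.3% in the induced shLSD1 library, and 8.49% and 11.3% in the shG9a libraries. CYCS, which encodes cytochrome c, was at 70.2 FPKM with DMSO, 20.9 with SP2509, 79.5 with UNC0642 and 125 with both, and at 23.5 without and 41.7 with Dox in the shLSD1 line.

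Assembly factors of complex IV were lower in 11 of 18 with SP2509, against 39.9% of all genes, and higher in 9 of 19 with Dox in the shLSD1 line, against 24.8%, and in 11 of 19 in the shG9a line, against 32.9%. With both inhibitors 6 of 19 were higher and 7 lower, against 31.4% and 31.7%. Among the 13 complex IV members, 0 were lower with SP2509, and 0 and 4 were higher with Dox in the shLSD1 and shG9a lines. With SP2509, assembly genes outside the rule were lower in 6 of 8 for complex I, 2 of 4 for complex II and 4 of 5 for complex III, and coenzyme Q synthesis genes in 7 of 12, against the same 39.9%. With Dox in the shG9a line, these lists were higher in 4 of 8, 2 of 4, 2 of 6 and 5 of 12 genes, against 32.9%.

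Known regulators of respiratory genes were lower in 8 of 11 with SP2509, against 39.9% of all genes, in 0 of 11 with UNC0642, against 16.9%, and in 2 of 11 with both inhibitors, against 31.7%. With both inhibitors their median log2 change was -0.02, and none was higher. They were higher in 7 of 11 with Dox in the shLSD1 line, against 24.8%, and in 5 of 11 in the shG9a line, against 32.9%. TFB2M, a transcription factor of the mitochondrial genome, was at 31.2 FPKM with DMSO, 13.6 with SP2509 and 34.3 with both inhibitors, and at 11.9 without and 23.5 with Dox in the shLSD1 line. TFAM, which packages mitochondrial DNA, was at 20.05, 11.5 and 19.1 FPKM with DMSO, SP2509 and both inhibitors, and at 7.26 and 12.7 FPKM without and with Dox in the shLSD1 line. NRF1 was at 4.54, 2.37 and 4.11 FPKM with DMSO, SP2509 and both inhibitors. In the TCA cycle list, 6 of 13 genes were lower with SP2509 and 4 of 13 higher with Dox in each line, which is within 1 gene of the shares of all genes, 39.9%, 24.8% and 32.9%. With both inhibitors, 7 of 13 were lower and 1 higher, against 31.7% and 31.4%. The part of these changes in those of the members was not tested.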

How the data were processed

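Expression was measured by RNA-seq in 8 libraries of Kyse510 cells. The authors deposited FPKM values (reads scaled by gene length and library size) in 2 tables on GRCh38 that were normalized separately; the counting tool and strand setting are not given in the sources used here. Groups came from the sample labels, and members were joined between tables by gene ID because 19 symbols differ. Library totals and reads were recovered from whole multiples in single-exon genes and then for all genes, giving 99.6% to 99.8% of each total. Fold changes were computed on FPKM plus 1, with at least 1 FPKM in 1 of the 2 libraries and a fold of 1.3, in Python 3.11.15 with pandas 2.3.3 and scipy 1.17.1, and tested on simulated data. FPKM divides by the whole exonic length, so genes with long minor isoforms read low, and the tables give NDUFV1, NDUFB9 and ATP5MD different lengths. Exon overlap came from GENCODE 44. The rule for named genes took the 3 largest increases and decreases in each comparison, the largest change in each complex, genes repeated over 3 comparisons or shared by knockdown and inhibitor, isoform groups and extremes of abundance; other genes were named after their values were seen. Members and lists were chosen with earlier results of these data known. Alternatives changed the pseudocount, the filter, the scaling, the fold and the control.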

Additional observations from a re-analysis of the deposited data

Results flagged for a closer look

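NDUFAF2, a complex I assembly factor, changed in opposite directions with doxycycline in the 2 lines. Its log2 change was 0.40 in the shLSD1 line, from 17.3 to 23.1 FPKM, and -0.52 in the shG9a line, from 19.0 to 12.95 FPKM. It was the only member past a fold of 1.3 in opposite directions in the 2 lines. With 1 library per condition, the difference was not tested.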

How the results depend on the processing

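Counts of higher or lower members were taken as equal within 1.5 times, and medians within 0.06, the median absolute log2 difference between the uninduced lines. Requiring an exact binomial p under 0.05 on recovered reads changed no count, and taking the mean of the 2 uninduced libraries as control changed no count over all members by more than 1.5 times. No paired analysis was possible because each condition has 1 library; leaving out a replicate was not possible for the same reason.

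All genes of 5 FPKM or more had medians of -0.09 with SP2509, 0.11 with Dox in the shLSD1 line and 0.14 in the shG9a line. After centring on these, the members' medians were -0.21, -0.013, which reversed the direction, and 0.27. With it, 2 members were higher with SP2509, 4 were higher and 4 lower with Dox in the shLSD1 line, 27 were higher in the shG9a line, and 4 were lower between the uninduced lines; 4 members were opposite and 1 was lower in both for LSD1, and 1 was opposite for G9a. With equal sums over nuclear protein-coding genes, both inhibitors gave 3 higher members, a median of -0.30 and 4 complexes with more lower than higher members (2 in the report), UNC0642 gave 4 lower members and 3 such complexes (1 in the report), Dox in the shLSD1 line gave 0 lower members and 0 such complexes, and 4 members were opposite for G9a.

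Pseudocounts of 0.1 and 0.01 gave a median of -0.39 with SP2509, 13 higher members with both inhibitors, 4 and 5 lower members and 2 such complexes with UNC0642, 5 and 6 lower members between the uninduced lines and, for G9a, 1 member lower in both and 4 opposite. A minimum of 5 FPKM gave a median of -0.28 with both inhibitors, 0 higher members with SP2509, 0 between the uninduced lines and 1 higher in both for G9a, and no filter gave 2 higher members with SP2509. Keeping only members with at most 10% overlapped exons, a choice made after seeing the data, gave a median of -0.30 with both inhibitors, 0 higher members with SP2509, 1 higher and 1 lower with UNC0642 and 1 lower with Dox in the shLSD1 line.

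At a fold of at least 2, SP2509 left 0 higher and 5 lower members, UNC0642 0 and 0, both inhibitors 1 and 1, Dox in the shLSD1 line 1 and 0 and in the shG9a line 2 and 1, and the uninduced lines 0 and 0. More members were then lower than higher in 2 complexes with SP2509, 1 with both inhibitors, 0 with UNC0642, 0 with Dox in the shLSD1 line, 1 in the shG9a line and 0 between the uninduced lines. For LSD1, 1 member was opposite, and for G9a 0 were higher in both and 0 opposite. None of the genes with the 3 largest increases or decreases of a comparison changed sign under the other pseudocounts, filters, scalings or control. Beyond what each alternative changes by construction, the cause of these differences was not tested.

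Depth limits the members below 1 FPKM, where a value rests on few reads, and the single library per condition limits every comparison.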
